A study of Mus musculus with 12 samples.

Results

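The Cyp2c genes listed here were the 8 mouse cytochrome P450 genes Cyp2c29, Cyp2c37, Cyp2c38, Cyp2c39, Cyp2c50, Cyp2c54, Cyp2c55 and Cyp2c70, chosen by name from the 12393 genes of the liver array. Cyp2c23, Cyp2c65 and Cyp2c68 were measured too, are described apart and are not in the counts of 8. On the normal diet they differed by 0.26, 0.060 and 0.095 on the log2 scale between RXRα KO and wild type mice, none of them called. Hepatic RXRα deficiency was accompanied by lower mRNA of 4 of the 8 genes on the normal diet, where 1.32% of all genes were called, and of 5 under retinoic acid (RA), where 3.95% were. The 5 became 2 when the first RA-treated KO array was left out. On the normal diet Cyp2c50, Cyp2c29 and Cyp2c54 were 4.50-fold, 4.25-fold and 3.56-fold lower in RXRα KO mice than in wild type mice. Cyp2c37 was lower too, by an amount that rests on dim signals. The calls of Cyp2c29 and Cyp2c37 held whichever array was left out, and those of Cyp2c50 and Cyp2c54 did not. RA treatment changed no member past the threshold in either genotype. Cyp2c39 had the largest positive RA difference of the 8 genes in both genotypes, by 1.03 in KO mice (adjusted p = 0.142 by limma) and by 0.83 in wild type mice (adjusted p = 0.243) on the log2 scale, and did not pass.

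Liver RNA came from 4 groups of 3 mice on a C57BL/6 background, with 1 Affymetrix mouse array per mouse. The groups were RXRα KO mice fed RA at 150 mg/kg diet for 7 days (KO_RA), RXRα KO mice fed the normal diet (KO), wild type mice fed RA at the same dose and for the same time (WT_RA), and wild type mice fed the normal diet (WT). Wild type mice were male and 12 weeks old according to the methods. In KO mice a floxed exon of Rxra that encodes the DNA-binding domain was removed by cre under the albumin promoter, which acts in hepatocytes, so that other liver cells kept the gene and hepatocytes could still make a truncated protein with the ligand-binding domain. Values are log2 signals as deposited, and a number after a group name is the replicate number of an array. Genes with an adjusted p under 0.05 by limma (Benjamini-Hochberg over all 12393 genes) are spoken of as called. All 4 groups shared the fit, and the spread given with a difference is its standard error (SE) with n = 3 arrays per group.

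CYP2C enzymes are microsomal monooxygenases that take electrons from cytochrome P450 reductase. Several of them convert arachidonic acid into epoxyeicosatrienoic acids, lipid mediators that soluble epoxide hydrolase breaks down, and others act on drugs, steroids, retinoids or bile acids. In liver their genes are known to answer to the xenobiotic receptors CAR and PXR and to hepatocyte factors such as HNF4α, and CAR and PXR bind DNA as partners of RXRα. The question put to these genes was how their mRNA responds to RA and to the loss of hepatocyte RXRα. The arrays measured neither enzymes nor eicosanoids.

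The arrays had medians between 6.26 and 6.35 and rank correlations of 0.978 to 0.994 within groups, and no pair was identical. A 3' control probe set of Actb was low on KO 1 (9.12) and WT_RA 3 (9.40), the remaining arrays reading 12.1 to 12.9. Rxra itself averaged 10.84 in KO_RA, 10.54 in KO, 10.23 in WT_RA and 10.57 in WT. Where its probe set lies relative to the deleted exon was not determined, so that it does not check the genotype. Hepatocyte markers read high on every array, with 13 of 15 listed genes measured and a mean level of 13.1 to 13.5.

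The family forms a cluster on mouse chromosome 19, which in the RefSeq annotation of GRCm38.p6 spans chr19:38976662-40187286 and holds 14 protein-coding genes and 4 pseudogenes. By the lower coordinate of their entries the listed members run Cyp2c55, Cyp2c29, Cyp2c39, Cyp2c38, Cyp2c37, Cyp2c54, Cyp2c50 and Cyp2c70. The entry of Cyp2c39 spans that of Cyp2c38. Cyp2c65 and Cyp2c68 lie in the same cluster and were also measured, as was Cyp2c23, which starts apart from it at 44005022. Each of the 8 genes was read by 1 probe set that the platform annotation gives to that gene alone. These genes are close relatives, and as probe sequences were not used here, cross-hybridization between them was not tested.

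RefSeq windows of 300 bases, from 250 bases before to 50 bases after a transcription start, were found for 7 of the 8 genes, with 2 starts for Cyp2c39 and none for Cyp2c54. The windows of Cyp2c37 and Cyp2c50 are shown because both genes were lower in KO mice, and they shared 264 of 300 bases in an alignment (88%). The windows of Cyp2c29 and Cyp2c39 are shown because these genes differed in their values although the shown windows shared 78.3% of bases. Of the 2 windows of Cyp2c39, the one more like that of Cyp2c29 was picked. Capitals mark CAAAGTC, the core of an HNF4-type element, which was searched on both strands and was chosen after the windows had been read.
Cyp2c37 (chr19:39992174-39992473, plus strand): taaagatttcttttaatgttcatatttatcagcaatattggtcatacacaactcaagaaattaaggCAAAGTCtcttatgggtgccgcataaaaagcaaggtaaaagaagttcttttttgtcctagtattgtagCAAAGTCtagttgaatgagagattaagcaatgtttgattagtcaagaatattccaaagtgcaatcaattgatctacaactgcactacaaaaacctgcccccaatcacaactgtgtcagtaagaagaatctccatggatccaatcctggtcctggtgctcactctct
Cyp2c50 (chr19:40089429-40089728, plus strand): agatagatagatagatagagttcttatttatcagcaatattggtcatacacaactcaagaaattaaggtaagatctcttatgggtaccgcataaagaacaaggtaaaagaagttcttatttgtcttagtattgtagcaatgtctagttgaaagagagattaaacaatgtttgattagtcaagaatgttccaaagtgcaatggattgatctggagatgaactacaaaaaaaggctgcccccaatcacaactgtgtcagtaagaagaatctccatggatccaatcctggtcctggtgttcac
Cyp2c29 (chr19:39286835-39287134, plus strand): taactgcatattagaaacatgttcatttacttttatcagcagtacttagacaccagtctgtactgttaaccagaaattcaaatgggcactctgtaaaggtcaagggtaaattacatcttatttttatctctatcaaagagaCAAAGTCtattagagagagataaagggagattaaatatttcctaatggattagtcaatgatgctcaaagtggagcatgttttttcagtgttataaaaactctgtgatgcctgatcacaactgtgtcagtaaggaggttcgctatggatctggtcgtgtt
Cyp2c39 (chr19:39347096-39347395, plus strand): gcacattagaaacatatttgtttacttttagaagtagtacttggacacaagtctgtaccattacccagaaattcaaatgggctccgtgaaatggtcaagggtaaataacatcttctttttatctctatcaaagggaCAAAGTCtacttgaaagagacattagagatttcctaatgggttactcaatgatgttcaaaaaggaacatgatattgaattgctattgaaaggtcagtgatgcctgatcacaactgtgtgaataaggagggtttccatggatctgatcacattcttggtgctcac
CAAAGTC occurred in 5 of the 8 family windows, namely those of Cyp2c29, Cyp2c37 (at 2 places), Cyp2c70 and both starts of Cyp2c39, against 4.44% of all 32851 windows in the table. As CAAAGTC was chosen from these windows, and several of them share most of their bases, its count beside that share is no test. CAAAGTC did not occur in the windows of Cyp2c38, Cyp2c50 and Cyp2c55. Cyp2c50 thus lacks these letters in a window that otherwise nearly matches that of Cyp2c37. The shown start of Cyp2c39 lies just before the annotated pseudogene Cyp2c72-ps. Its other window, which starts at 39510572, shared 74.3% of bases with that of Cyp2c29. Which start is used in liver was not tested. The nuclear receptor hexamer AGGTCA, searched on both strands, was in 3 of the 8 windows, against 16.3% of all windows. TATAAA, also searched on both strands, was in 5 of the 8 windows and in 13.6% of all windows. In the window of Cyp2c70 it lay on the other strand, and in the Cyp2c39 window that starts at 39510572 it began at -3 relative to the transcription start. A match of letters is a description of the window and not a binding site.

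Cyp2c29, an arachidonic acid epoxygenase that phenobarbital induces through CAR, lies at chr19:39287044-39330713. Its log2 signal was 10.18, 9.67 and 9.61 in KO_RA, 10.69, 10.25 and 11.10 in KO, 12.78, 12.52 and 12.41 in WT_RA, and 12.76, 12.91 and 12.63 in WT. All 6 KO arrays lay below all 6 wild type arrays, and within the KO genotype the RA arrays lay below the normal diet arrays. On the normal diet Cyp2c29 was lower in KO mice (log2 difference -2.09 ± 0.20, limma, adjusted p = 0.000855) and was 6.72-fold lower in KO_RA than in WT_RA (log2 difference -2.75 ± 0.20, adjusted p = 5.41e-05). Both calls held in each of the 22 alternatives run, the 12 that left out an array included. Group membership accounted for 96.6% of its variance over the 12 arrays, the highest share among the 8 genes.

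RA moved Cyp2c29 by -0.86 ± 0.20 in KO mice (adjusted p = 0.0862) and by -0.20 ± 0.20 in wild type mice (adjusted p = 0.821), both short of the threshold. The difference between these RA effects was -0.66 ± 0.29 with a 95% confidence interval of -1.29 to -0.033, an unadjusted p of 0.0406 by limma and an adjusted p of 0.409. Without KO 2 the RA effect in KO mice was -1.07 with an adjusted p of 0.0492, and with array weights it was -0.998 with an adjusted p of 0.0309. The genotypes were therefore not shown to differ in their answer to RA for this gene.

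Cyp2c37 (chr19:39992424-40012243) encodes an enzyme that hydroxylates arachidonic acid to hydroxyeicosatetraenoic acids. It read 4.64, 4.48 and 4.47 in KO_RA, 4.59, 3.37 and 4.06 in KO, 6.84, 6.62 and 6.29 in WT_RA, and 6.12, 6.19 and 5.63 in WT. The KO arrays lay below the wild type arrays on either diet, and the WT_RA arrays lay above the WT arrays. The genotype difference was -1.98 ± 0.26 on the normal diet (adjusted p = 0.00336) and -2.05 ± 0.26 under RA (adjusted p = 0.00134), a 4.14-fold lower signal in KO_RA. On all 6 KO arrays its signal was under the lower quartile of that array, so that the size of both differences rests on dim values. RA gave +0.53 ± 0.26 in KO mice (adjusted p = 0.380) and +0.60 ± 0.26 in wild type mice (adjusted p = 0.383), neither of which passed.

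Cyp2c50 (chr19:40089679-40113955) and Cyp2c54 (chr19:40037939-40073845), neighbouring genes whose products epoxidize arachidonic and linoleic acid, went together. Cyp2c50 read 9.55, 8.90 and 9.91 in KO_RA, 9.90, 7.94 and 9.35 in KO, 11.53, 11.45 and 11.44 in WT_RA, and 11.15, 11.35 and 11.20 in WT. Cyp2c54 read 10.42, 10.19 and 10.66 in KO_RA, 10.31, 8.44 and 10.07 in KO, 11.74, 11.72 and 11.68 in WT_RA, and 11.24, 11.63 and 11.43 in WT. For both genes the KO arrays lay below the wild type arrays on either diet, the KO group was widest, with an SD of 1.01 for Cyp2c50 and 1.02 for Cyp2c54, and KO 2 was the lowest array. Over the 12 arrays the pair had r = 0.97, and after the group means were taken out r was 0.96. These correlations are descriptions over arrays that share RNA and hybridization.

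On the normal diet Cyp2c50 was 4.50-fold lower (-2.17 ± 0.39, adjusted p = 0.0230) and Cyp2c54 3.56-fold lower (-1.83 ± 0.36, adjusted p = 0.0338) in KO mice. Without KO 2 these differences were -1.61 for Cyp2c50 and -1.25 for Cyp2c54, with adjusted p-values of 0.0135 and 0.00479. The call of Cyp2c50 was lost without WT 1 (adjusted p = 0.0683), WT 2 (adjusted p = 0.0875) or WT 3 (adjusted p = 0.0575), and with only the KO and WT arrays fitted (adjusted p = 0.0846). That of Cyp2c54 was lost without WT 1 (adjusted p = 0.0868), WT 2 (adjusted p = 0.120), WT 3 (adjusted p = 0.0793) or KO_RA 1 (adjusted p = 0.0506), and also with a further quantile normalization (adjusted p = 0.0528), with every probe set tested (adjusted p = 0.0521), with trend and robust settings of eBayes (adjusted p = 0.0638) and with only the KO and WT arrays fitted (adjusted p = 0.138).

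Under RA Cyp2c50 was 4.05-fold lower in KO_RA than in WT_RA (-2.02 ± 0.39, adjusted p = 0.0150), a call lost without KO_RA 1 (adjusted p = 0.0546) or KO_RA 2 (adjusted p = 0.0502). For Cyp2c54 the same difference was -1.29 ± 0.36 and did not pass (adjusted p = 0.0722). It passed without KO 1 (adjusted p = 0.0385) or KO 2 (adjusted p = 0.000626), arrays that lie outside this contrast but share its estimate of the spread. It also passed with only the KO_RA and WT_RA arrays fitted (adjusted p = 0.00259) and with array weights (adjusted p = 0.0380). RA gave Cyp2c50 differences of +0.39 in KO mice and +0.24 in wild type mice, and gave Cyp2c54 differences of +0.82 in KO mice and +0.28 in wild type mice, and none of these passed. Without KO 2 the RA difference of Cyp2c50 in KO mice turned to -0.17 and that of Cyp2c54 was +0.24.

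Cyp2c38 (chr19:39389556-39463103), another epoxygenase, read 7.66, 7.85 and 7.43 in KO_RA, 8.53, 7.65 and 8.12 in KO, 8.79, 8.40 and 8.46 in WT_RA, and 8.56, 8.77 and 8.61 in WT. The KO_RA arrays lay below the WT_RA arrays, whereas KO 1 came close to the lowest WT array. Cyp2c38 fell by 0.90 ± 0.19 in KO mice under RA (1.87-fold lower, adjusted p = 0.0240), and on the normal diet the difference was -0.54 ± 0.19 (adjusted p = 0.196). With array weights the normal diet difference was -0.71 and passed (adjusted p = 0.00480). The call under RA was lost without WT_RA 1 (adjusted p = 0.0906), WT_RA 3 (adjusted p = 0.0595), KO_RA 1 (adjusted p = 0.0859) or KO_RA 3 (adjusted p = 0.0998). The RA effects of the genotypes differed by -0.36 ± 0.27 (adjusted p = 0.666).

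Cyp2c70 (chr19:40153361-40187286) makes the muricholic acids that set mouse bile apart from human bile. It read 12.42, 12.58 and 12.53 in KO_RA, 12.60, 12.37 and 12.57 in KO, 12.86, 12.89 and 13.08 in WT_RA, and 12.99, 12.68 and 12.80 in WT. KO arrays lay below wild type arrays on both diets, within a narrow range of 0.71 over all arrays. Cyp2c70 was 1.35-fold lower in KO_RA than in WT_RA (-0.43 ± 0.11, adjusted p = 0.0411). This call was lost in 13 of 22 alternatives. Among them were those without KO_RA 1 (adjusted p = 0.165), KO_RA 2 (adjusted p = 0.0650), KO_RA 3 (adjusted p = 0.114), KO 3 (adjusted p = 0.0587), WT_RA 1 (adjusted p = 0.0729), WT_RA 2 (adjusted p = 0.0791), WT_RA 3 (adjusted p = 0.160) and WT 3 (adjusted p = 0.0543). On the normal diet the difference was -0.31 ± 0.11 (adjusted p = 0.177).

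Cyp2c39 (chr19:39347346-39569568), known as an arachidonic acid epoxygenase and as a hydroxylase of retinoic acid, followed another order. It read 10.10, 11.07 and 9.79 in KO_RA, 9.42, 8.75 and 9.70 in KO, 10.32, 10.66 and 10.51 in WT_RA, and 9.67, 9.77 and 9.54 in WT. RA arrays lay above normal diet arrays in both genotypes, and KO arrays overlapped wild type arrays on both diets. The RA difference was +1.03 ± 0.29 in KO mice (2.04-fold) and +0.83 ± 0.29 in wild type mice (1.78-fold). With only the WT_RA and WT arrays in the fit, the difference in wild type mice passed (adjusted p = 0.0222). The genotype differences were -0.37 ± 0.29 on the normal diet and -0.17 ± 0.29 under RA, with 95% confidence intervals of -1.01 to 0.27 and -0.81 to 0.46.

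Cyp2c55 (chr19:39006940-39042690), a gene known mainly from the intestine and induced in liver through CAR and PXR, passed in no comparison when all arrays had equal weight. It read 6.15, 5.47 and 5.75 in KO_RA, 6.54, 6.03 and 6.19 in KO, 6.003, 5.80 and 5.85 in WT_RA, and 5.84, 6.25 and 6.32 in WT. On 11 arrays it was under the median of the array, and no pair of groups stood apart in either genotype contrast or either RA contrast. Its differences ran from -0.46 ± 0.18 for RA in KO mice (adjusted p = 0.289) to +0.11 ± 0.18 for KO mice on the normal diet (adjusted p = 0.775).

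**Figure D1:**
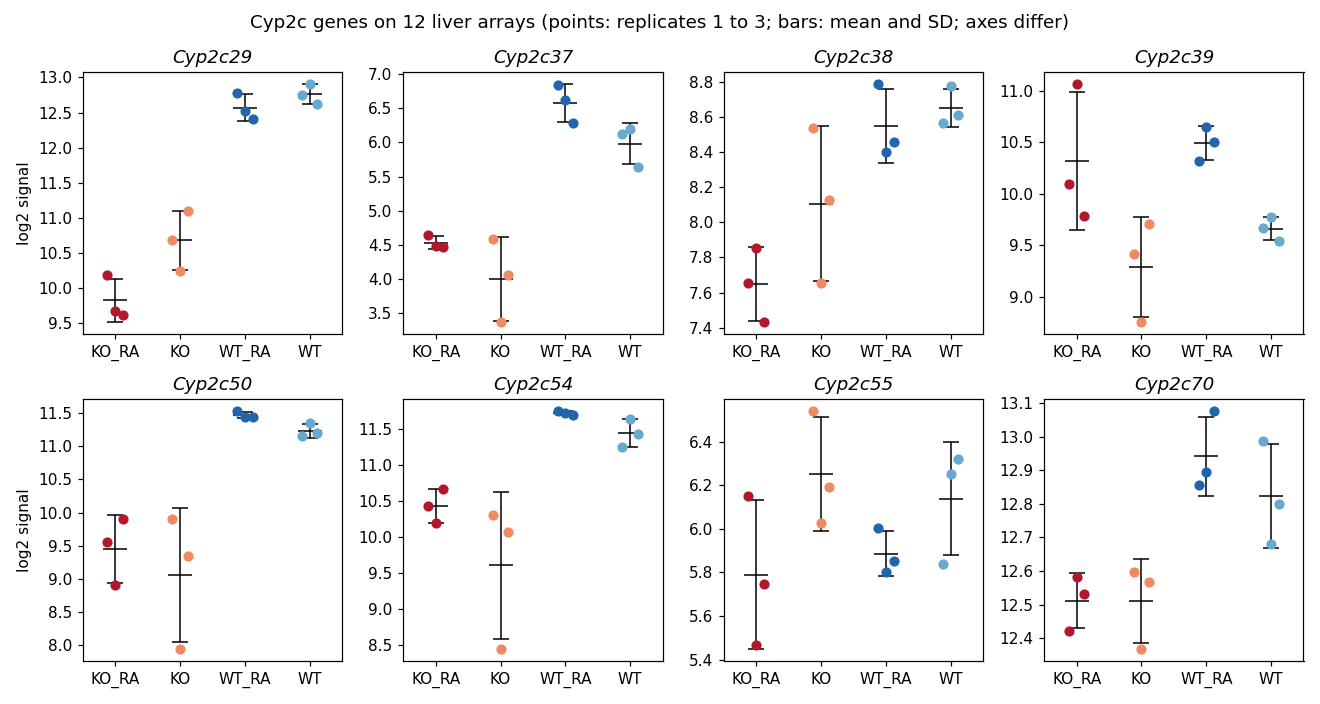
Log2 signal of the 8 Cyp2c genes on the 12 arrays, by group (KO_RA, KO, WT_RA, WT). Points are arrays 1 to 3, bars are the mean and SD, and each panel has its own vertical axis. Cyp2c29, Cyp2c37, Cyp2c50, Cyp2c54 and Cyp2c70 are lower on all KO arrays than on all wild type arrays, and Cyp2c39 is higher on RA arrays than on normal diet arrays of its genotype.

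In order of group means, Cyp2c37, Cyp2c50, Cyp2c54 and Cyp2c70 ran WT_RA, WT, KO_RA and KO from high to low, and Cyp2c29 and Cyp2c38 ran WT, WT_RA, KO and KO_RA. Cyp2c39 ran WT_RA, KO_RA, WT and KO, and Cyp2c55 ran KO, WT, WT_RA and KO_RA. The lowest wild type group and the highest KO group did not overlap for Cyp2c29, Cyp2c37, Cyp2c50, Cyp2c54 and Cyp2c70. Neighbouring groups of the same genotype overlapped in most cases. They stood apart only for Cyp2c29 (KO above KO_RA) and for Cyp2c37, Cyp2c50 and Cyp2c54 (WT_RA above WT). For Cyp2c55 no neighbours stood apart.

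Counted over the listed genes on the normal diet, 4 of 8 genes were called in KO mice and all 4 were lower (Cyp2c29, Cyp2c37, Cyp2c50 and Cyp2c54), against 1.32% of all genes called in either direction. The arrays of the groups did not overlap for 6 of 8 genes, all lower, against 20.1% of all genes. The median difference of the 8 genes was -1.19, beside 0.024 for all genes, and was -0.78 without KO 2. In these whole-liver samples fewer cells of a type and less RNA per cell cannot be told apart. The 11 pericentral hepatocyte markers had a median difference of 0.012, with 6 positive and 5 negative. Of the 11, 0 were called by limma and 3 had an unadjusted p under 0.05, against 2017 of all 12393 genes. Rhbg was -0.85 ± 0.19 (adjusted p = 0.0513). Under RA Rhbg was called lower in KO_RA than in WT_RA (-1.79 ± 0.19, adjusted p = 0.000473). It was also called higher in WT_RA than in WT (1.02 ± 0.19, adjusted p = 0.0236). No other pericentral marker was called in the 6 comparisons.

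Under RA 5 of 8 genes were called and all 5 were lower in KO_RA than in WT_RA (Cyp2c29, Cyp2c37, Cyp2c38, Cyp2c50 and Cyp2c70), against 3.95% of all genes. The groups did not overlap for 6 of 8 genes, all lower in KO_RA, against 25.6% of all genes. The median difference was -1.10, beside 0.010 for all genes. Leaving out each array in turn gave 2 to 6 called members, with the fewest without KO_RA 1, where Cyp2c29 and Cyp2c37 passed.

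For RA in KO mice 0 of 8 genes were called by limma, against 0.500% of all genes. An unadjusted p under 0.05 was found for 5 of the 8, against 1740 of all 12393 genes. Array weights, or leaving out KO 2, called 1 member, Cyp2c29, which was lower. The KO_RA arrays did not overlap the KO arrays for 2 of 8 genes, Cyp2c29 (lower) and Cyp2c39 (higher), against 20.9% of all genes. The median difference was 0.20 and turned to -0.12 without KO 2.

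RA in wild type mice gave 0 of 8 calls by limma, against 1.27% of all genes. An unadjusted p under 0.05 was found for 2 of the 8, against 1454 of all 12393 genes. Fitting only the WT_RA and WT arrays called 1 member, Cyp2c39. The WT_RA arrays did not overlap the WT arrays for 4 of 8 genes, all higher (Cyp2c37, Cyp2c39, Cyp2c50 and Cyp2c54), against 16.6% of all genes. The median difference was 0.18, and the differences of the 8 genes lay between -0.25 for Cyp2c55 and 0.83 for Cyp2c39. For Cyp2c50 the 95% confidence interval ran from -0.60 to 1.08 and for Cyp2c54 from -0.51 to 1.07, so that neither a fall nor a 2-fold rise was outside the interval.

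The difference between the RA effects of KO and wild type mice passed for 0 of 8 genes by limma, and for 0.00807% of all genes. An unadjusted p under 0.05 was found for 1 of the 8 (Cyp2c29), against 1446 of all 12393 genes. The intervals were wide. For Cyp2c54, with the largest positive value, the difference was +0.54 with a 95% confidence interval of -0.57 to 1.65, and without KO 2 it was -0.046. In the fit with the array weights 0 of the 8 genes passed as well.

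Set against WT, the KO_RA group differed in both genotype and diet. Here 4 of 8 genes were called, all lower (Cyp2c29, Cyp2c37, Cyp2c38 and Cyp2c50), against 3.08% of all genes. The KO_RA arrays did not overlap the WT arrays for 7 of 8 genes, 6 lower and 1 higher (Cyp2c39), against 22.1% of all genes. Cyp2c29 was 7.70-fold lower (-2.94 ± 0.20, adjusted p = 2.48e-05), and Cyp2c37 was 2.74-fold lower (-1.45 ± 0.26, adjusted p = 0.0111), a call lost without WT 2 (adjusted p = 0.0535). Cyp2c38 was 2.0-fold lower (-1.0 ± 0.19, adjusted p = 0.0159), a call lost without WT 2 (adjusted p = 0.0743), KO_RA 1 (adjusted p = 0.0606) or KO_RA 3 (adjusted p = 0.0689). Cyp2c50 was 3.43-fold lower (-1.78 ± 0.39, adjusted p = 0.0301), a call lost without WT 1 (adjusted p = 0.0770), WT 2 (adjusted p = 0.102), WT 3 (adjusted p = 0.0711), KO_RA 1 (adjusted p = 0.0857) or KO_RA 2 (adjusted p = 0.103), and with trend and robust settings of eBayes (adjusted p = 0.0615). Cyp2c54 did not pass (-1.01 ± 0.36, adjusted p = 0.178) but did so without KO 2 (adjusted p = 0.00234), with only the KO_RA and WT arrays fitted (adjusted p = 0.00927) and with array weights (adjusted p = 0.0130). Array weights also called Cyp2c55 lower (-0.39, adjusted p = 0.0415). This comparison shares its arrays with those above.

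**Figure D2:**
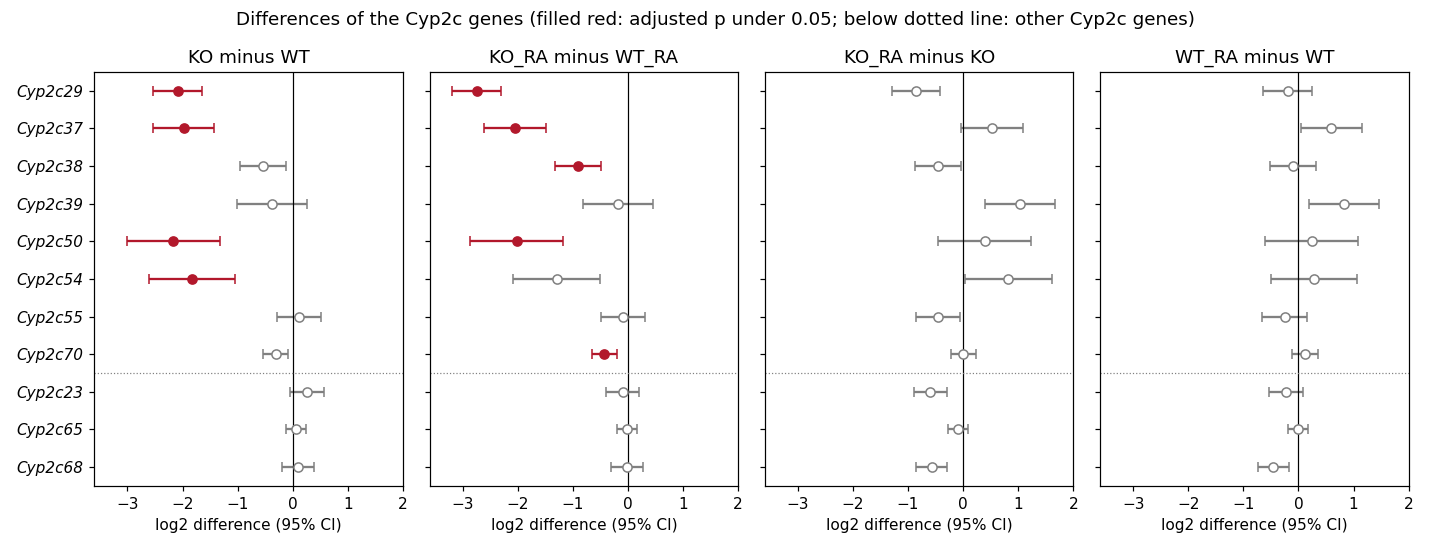
Log2 differences of the 11 measured Cyp2c genes with 95% confidence intervals, for KO minus WT, KO_RA minus WT_RA, KO_RA minus KO and WT_RA minus WT. Filled red points passed an adjusted p of 0.05 by limma, and the 3 genes under the dotted line are Cyp2c23, Cyp2c65 and Cyp2c68. Filled points lie only in the 2 panels that compare genotypes, 4 in the first and 5 in the second, all left of 0.

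The other measured Cyp2c genes gave 0 calls in the 6 comparisons by limma, against 0.00807% to 3.95% of all genes. At an unadjusted p under 0.05 were 0 to 2 of the 3 genes, against 1446 to 2208 of all 12393 genes. With 3 genes, 0 calls is near the share of all genes and does not show that these genes were unchanged. The probe sets of Cyp2c23 and Cyp2c65, unlike that of Cyp2c68, carry a suffix of sets that transcripts can share. Whether other transcripts add to their readings was not tested. Cyp2c23, an epoxygenase gene once named Cyp2c44, read 11.81, 11.49 and 12.14 in KO_RA, 12.46, 12.41 and 12.34 in KO, 12.07, 11.92 and 11.74 in WT_RA, and 12.21, 12.10 and 12.12 in WT. Its RA arrays lay below the normal diet arrays in both genotypes, with RA differences of -0.59 ± 0.14 in KO mice (adjusted p = 0.0862) and -0.23 ± 0.14 in wild type mice (adjusted p = 0.615). Cyp2c68 lay below its normal diet level on all RA arrays too, with differences of -0.57 ± 0.13 in KO mice (adjusted p = 0.0740) and -0.46 ± 0.13 in wild type mice (adjusted p = 0.137). Its genotype differences were 0.095 ± 0.13 on the normal diet and -0.019 ± 0.13 under RA, with 95% confidence intervals of -0.19 to 0.38 and -0.30 to 0.26. Cyp2c65 stayed between 3.79 and 4.03, under the lower quartile of each array.

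Along the chromosome the lower values in KO mice were not confined to a contiguous stretch. Cyp2c29 was called lower on both diets, Cyp2c39, next by lower coordinate, in neither genotype contrast, and Cyp2c38 under RA. From its other start Cyp2c39 would lie past Cyp2c38. Farther along, Cyp2c68 was not called, whereas its next measured neighbours Cyp2c37, Cyp2c54 and Cyp2c50 were called on the normal diet. The similar windows of Cyp2c37 and Cyp2c50, printed above, belong to 2 called genes. Those of Cyp2c29 and Cyp2c39 belong to 1 called and 1 uncalled gene. The windows were picked by the values of these genes, so that this pattern was set by the choice and is no result. The difference between these genes was not tested.

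**Figure D3:**
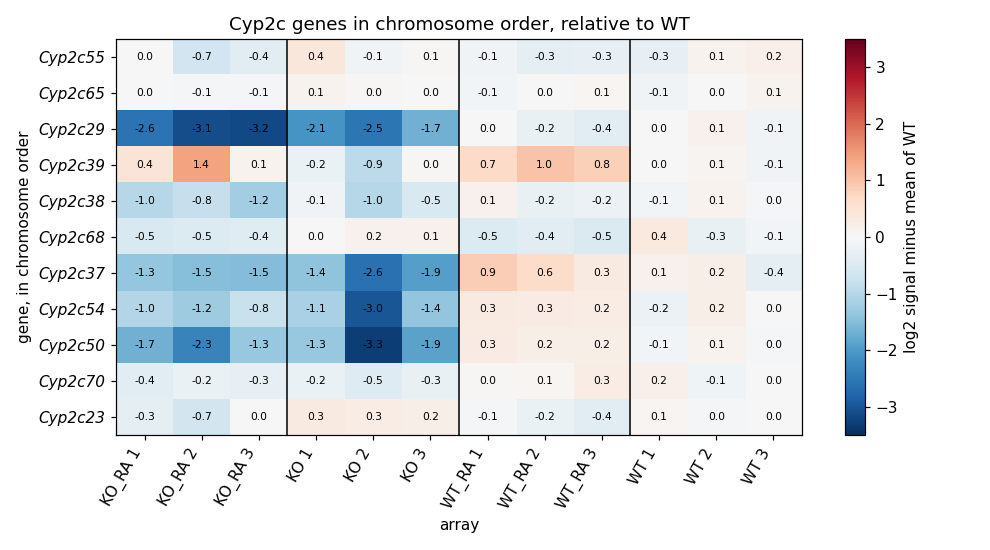
Log2 signal minus the mean of the WT arrays for the 11 measured Cyp2c genes (rows, in chromosome order) on the 12 arrays (columns). Blue is below and red above the WT mean, and each cell gives its value. Cyp2c29, Cyp2c37, Cyp2c54 and Cyp2c50 are blue on all 6 KO arrays, KO 2 being the lowest for Cyp2c37, Cyp2c54 and Cyp2c50.

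KO 2 read lowest of the KO arrays for 8 of 8 members, while 36.0% of all genes read lowest on that array. Its deviation from the KO mean was -1.13 for Cyp2c50 and -1.17 for Cyp2c54. Markers of Kupffer cells, the macrophages of the liver, were highest on the same array. The 15 measured markers of 16 listed had a median deviation of 1.60 on KO 2, beside 0.46 on KO 3 and -0.23 on KO 1. Summed over the 15 genes their log2 level lay between 109.9 and 112.2 in KO_RA, 106.8 and 136.1 in KO, 110.1 and 121.1 in WT_RA, and 101.03 and 104.2 in WT. All 15 were higher in group mean in KO than in WT and all 15 were higher in WT_RA than in WT, with medians of 1.26 and 0.88. By limma 0 were called in KO on the normal diet, though all 15 had an unadjusted p under 0.05, against 2017 of all 12393 genes. In WT_RA 1 (Cd14) was called, against 1.27% of all genes. There 7 had an unadjusted p under 0.05, against 1454 of all 12393 genes. None of the 15 was at 0, the lowest reading was 4.48, and 10 of them lay above the median of the array on all 12 arrays. The 10 endothelial markers had their highest median deviation on KO 2 too (0.41). The part of the Kupffer and endothelial markers in the Cyp2c differences was not tested. Without KO 2, Cyp2c29, Cyp2c37, Cyp2c50 and Cyp2c54 were still called lower in KO mice on the normal diet.

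**Figure D4:**
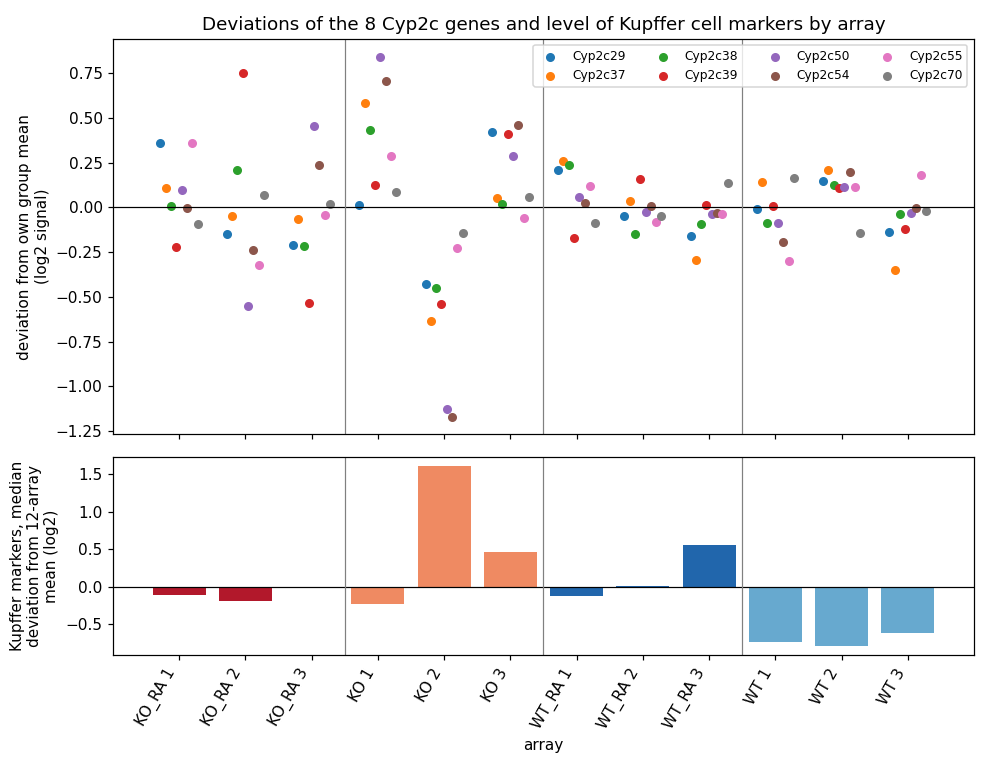
Deviation of the 8 Cyp2c genes from their own group mean on each array (top, log2 signal) and the median deviation of 15 Kupffer cell markers from their 12-array mean (bottom, log2). Each point is a gene and each bar an array, coloured by group. On KO 2 all 8 genes lie below their group mean, and the marker bar of that array is the tallest at 1.60.

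Acute phase genes, which the liver makes in inflammation, moved with the RA diet. All 22 measured genes had a positive RA difference in each genotype, with medians of 0.53 in KO mice and 0.67 in wild type mice. By limma 5 were called in KO mice, against 0.500% of all genes, and 7 in wild type mice, against 1.27%. Their part in the RA differences of the Cyp2c genes was not tested.

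Of the 28 pairs of the 8 genes, 25 had a positive correlation after the group means were taken out, with a median r of 0.46 and a range of -0.32 to 0.96. All 8 genes lay below their group mean on KO 2, and that array enters each of these values. The correlations were not computed without KO 2 or for pairs of all genes, so whether the members vary together was not tested. Over the 12 arrays as they stand, 24 pairs were positive with a median of 0.70, and the lowest value was -0.62, for Cyp2c39 with Cyp2c55. The pair Cyp2c50 and Cyp2c54 was highest on both counts.

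By Pearson's r over the 12 arrays, among genes at or above the median level, the gene most like Cyp2c50 was Cyp2c54 (r = 0.97) and the reverse held too. For Cyp2c50 Dock8 (r = 0.93) and Wdr45b (r = 0.92) followed, and for Cyp2c54 Mrap (r = 0.94) and Decr2 (r = 0.91). Cyp2c29 was most like Ugt2b34 (r = 0.97), which encodes a glucuronosyltransferase, the peroxisomal thiolase gene Acaa1b (r = 0.97) and Acadvl (r = 0.95). Acaa1b averaged 7.97 in KO_RA, 9.28 in KO, 11.24 in WT_RA and 11.84 in WT, the same order of groups as Cyp2c29. Cyp2c37 was most like Perp (r = 0.96), the flavin monooxygenase gene Fmo5 (r = 0.96) and Ccdc107 (r = 0.96). For Cyp2c38 these were Higd1a (r = 0.95), Acot13 (r = 0.94) and Ndufb3 (r = 0.93), and for Cyp2c39 they were Tbl1xr1 (r = 0.91), Dstn (r = 0.91) and Cradd (r = 0.90). Ncaph2 (r = 0.94), Celsr2 (r = 0.93) and Pstk (r = 0.91) were the most alike for Cyp2c55, and Slc25a20 (r = 0.95), Ndufb11 (r = 0.95) and Tmem141 (r = 0.95) for Cyp2c70. These genes were picked out of all genes for their r, so the values are descriptions.

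Of the wider epoxygenase pathway, which comprised Cyp2j epoxygenases, epoxide hydrolases and electron donors, 10 of 16 listed genes were measured. Cyp2j5, an epoxygenase of another subfamily, was lower in KO_RA than in WT_RA (-0.40 ± 0.09, adjusted p = 0.0301) and than in WT (-0.42 ± 0.09, adjusted p = 0.0294). Ephx2, the soluble epoxide hydrolase that degrades epoxyeicosatrienoic acids, was lower in KO_RA than in WT (-0.75 ± 0.11, adjusted p = 0.00374). RA lowered Cyb5r3, a reductase of cytochrome b5, in wild type mice (-0.56 ± 0.12, adjusted p = 0.0459). None of the 10 was called higher in any of the 6 comparisons, where 0 to 142 of all 12393 genes were. By limma 0 of the 10 were called for KO mice on the normal diet (2 with an unadjusted p under 0.05), for RA in KO mice (3) or for the difference of RA effects (0). Of all genes 1.32%, 0.500% and 0.00807% were called there. Over all 12393 genes the counts at an unadjusted p under 0.05 were 2017, 1740 and 1446 in that order.

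Of 29 listed regulators of Cyp2c genes 26 were measured. RA raised Rarb, a retinoic acid receptor gene and a known RA target, by 1.42 ± 0.17 (adjusted p = 0.00260) and Ahr, the aryl hydrocarbon receptor, by 1.19 ± 0.18 (adjusted p = 0.00857) in wild type mice. Cebpa, the gene of a hepatocyte transcription factor, was lower in WT_RA than in WT (-0.85 ± 0.13, adjusted p = 0.0102). Its relative Cebpb was lower in KO mice on the normal diet (-0.87 ± 0.18, adjusted p = 0.0423) and higher with RA in KO mice (1.14 ± 0.18, adjusted p = 0.0252). Under RA Ahr was lower (-0.89, adjusted p = 0.0177) and Cebpa higher (0.53, adjusted p = 0.0448) in KO_RA than in WT_RA. Rarb was higher (1.37, adjusted p = 0.00157) and Foxa1 lower (-1.25, adjusted p = 0.0146) in KO_RA than in WT. The genes of CAR (Nr1i3) and PXR (Nr1i2) were called in none of the 6 comparisons. Their KO minus WT differences were -0.073 and -0.035 on the normal diet, and 0.14 and -0.38 under RA. With RA, Nr1i3 differed by 0.67 ± 0.17 in KO mice (adjusted p = 0.112) and by 0.46 ± 0.17 in wild type mice (adjusted p = 0.299). For Nr1i2 these were 0.21 ± 0.22 (adjusted p = 0.691) and 0.56 ± 0.22 (adjusted p = 0.319). In KO_RA against WT, Nr1i3 was 0.59 higher (adjusted p = 0.0973) and Nr1i2 0.18 higher (adjusted p = 0.794).

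Other targets of CAR and PXR did not share 1 direction. Of 26 listed genes 20 were measured, and on the normal diet 1 was called higher and 1 lower in KO mice, against 1.32% of all genes called. Ces2a, a carboxylesterase gene, was higher (3.16 ± 0.40, adjusted p = 0.00336) and Abcc3, an export pump, lower (-1.51 ± 0.27, adjusted p = 0.0237). Under RA, Cyp2b10, the classic CAR target, was lower in KO_RA than in WT_RA (-1.79 ± 0.25, adjusted p = 0.00290), as were Gsta2 (-1.69, adjusted p = 0.0137) and Abcc3 (-1.65, adjusted p = 0.00638), while Ces2a was higher (1.97, adjusted p = 0.0199). Against WT, KO_RA had lower Cyp2b10 (-1.12, adjusted p = 0.0352) and Abcc3 (-1.62, adjusted p = 0.00811) and higher Ces2a (2.38, adjusted p = 0.00911), Papss2 (1.24, adjusted p = 0.0265) and Alas1 (0.94, adjusted p = 0.0410). For RA 0 of the 20 were called by limma in either genotype, with 5 in KO mice and 6 in wild type mice at an unadjusted p under 0.05. Of all 12393 genes 1740 and 1454 had such a p-value.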

How the data were processed

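The authors deposited 1 log2 value per probe set for each of 12 liver arrays. The submitters' processing notes name RMA and Partek 6.11, whereas the methods name MAS5, and the background correction was not repeated here. Of 22690 probe sets, 20380 had 1 gene symbol in the platform annotation, 691 had several and 1555 had none, and 64 were controls. Each gene was read from its probe set with the highest mean, which gave 12393 genes. Groups and replicate numbers came from the sample titles, which call the samples biological replicates. A linear model with a coefficient per group (8 residual degrees of freedom) was fitted to the 12 arrays and tested two-sided with empirical Bayes moderation in limma 3.58.1 under R 4.3.3. RA was tested within each genotype, genotype within each diet, their interaction, and KO_RA against WT. The number of arrays limits the precision of each value. The fit was tested on simulated data.

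The genes named were the 8 members, the other measured Cyp2c genes, called members of the pathway lists (at most 5 per list and comparison, by size) and, for each member, the 3 genes with the highest r. Rxra, the Actb control, Nr1i2, Nr1i3, Cd14 and Rhbg fall outside this rule and were named after their values were seen. The members, lists and rules were chosen with earlier results of these data known. Alternatives comprised a replicate block, a further quantile normalization, centring on medians, a filter on dim genes, the mean of all probe sets, a test of every probe set, a fit of the compared groups only, eBayes with trend and robust settings, array weights, and leaving out arrays. Of the marker lists fixed for endothelial, stellate, periportal, cholangiocyte and neutrophil cells, at most 2 genes were called in any comparison. These 2 were of the 10 endothelial markers and were lower for RA in KO mice, against 0.500% of all genes called. On the normal diet 8 of the 10 endothelial markers were higher in KO mice than in WT. Of the 10, 0 were called there and 6 had an unadjusted p under 0.05, against 2017 of all 12393 genes. Promoter windows were RefSeq's for GRCm38.p6, and the arrays' files give no coordinates.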

Additional observations from a re-analysis of the deposited data

How the results depend on the processing

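Of 1036 recomputed single-gene values, 959 kept their direction and their side of the threshold, 41 fell short of the threshold, 12 came to pass it and 24 changed sign. The calls of Cyp2c29 in KO mice on either diet and against WT, and of Cyp2c37 in KO mice on either diet, held in all alternatives that gave a value. A filter on dim genes left out Cyp2c37 and Cyp2c55. The counts of called members that moved by over 1.5 times were as follows. Fitting only the compared groups called 1 member for the RA effect of wild type mice and 2 for KO mice on the normal diet, and array weights called 1 for RA in KO mice. Leaving out each array in turn gave 2 to 4 called members for KO mice on the normal diet, 0 to 1 for RA in KO mice, 2 to 6 for KO under RA and 1 to 5 for KO_RA against WT. Where an array was left out, the remaining pair was assumed to vary like the other groups.

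All values that changed sign were of genes not called. Cyp2c55 in KO mice on the normal diet was -0.059 with array weights, -0.029 without WT_RA 3 and KO 1, and -0.034 to 0.23 with each array left out. Cyp2c70 for RA in KO mice was -0.028 after further quantile normalization, -0.019 with array weights and -0.071 to 0.046 with each array left out, and Cyp2c50 was -0.17 to 0.81. For KO under RA, leaving out each array gave -0.28 to 0.063 for Cyp2c55 and -0.55 to 0.092 for Cyp2c39. For the difference of the RA effects, Cyp2c37 was 0.13 with array weights, 0.073 without WT_RA 3 and KO 1, and -0.39 to 0.22 with each array left out. Cyp2c39 was -0.051 with array weights and -0.18 to 0.46 with each array left out, Cyp2c55 was 0.027 with array weights, and with each array left out Cyp2c50 was -0.41 to 0.57 and Cyp2c54 -0.046 to 0.89. The cause was not tested.

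Over all genes, array weights called 1070 for the RA effect of wild type mice, 1734 for KO on the normal diet, 303 for RA in KO mice, 1064 for KO under RA, 247 for the difference of RA effects and 2476 for KO_RA against WT, against 158, 163, 62, 490, 1 and 382. Without WT_RA 3 and KO 1 the counts were 95, 266, 110, 312, 12 and 494, and with only the compared groups 103, 70, 21, 436 and 367, with no such fit for the difference. Leaving out each array gave 47 to 212, 51 to 217, 6 to 77, 170 to 599, 1 to 14 and 159 to 446.

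Arrays with the same replicate number did not deviate together. Over all genes r was -0.46 to 0.27 for 18 same-numbered pairs and -0.32 to 0.35 for 36 others. With the replicate number as a block, 4 members were called for KO under RA, Cyp2c70 not passing (adjusted p = 0.0627), and 98 genes for KO on the normal diet. The block changed no other call of a member. The dim signals of Cyp2c37 on the KO arrays limit the size of its differences.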
